A study of Homo sapiens with 8 samples.

Results

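The genes described here are the plasminogen activators PLAU and PLAT, the receptor PLAUR, and the inhibitors SERPINE2 and SERPINB2. They were chosen by name, with earlier results of these data in view, and their values were taken from the tables of ribosome footprints without and with 4-hydroxytamoxifen (4-OHT). Of these 5 genes, 4 were listed in both tables, which share 10685 genes. SERPINB2, the inhibitor PAI-2, was not listed in either table and has no value here. Because the choice was made with the 4-OHT values known, the changes of these genes with 4-OHT are given as a description.

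Plasmin is a protease that dissolves fibrin and cleaves matrix proteins, and it is made from plasminogen by urokinase (uPA, encoded by PLAU) or by tissue-type plasminogen activator (tPA, encoded by PLAT). The receptor uPAR (PLAUR) holds urokinase at the cell surface. Serpins are inhibitors that trap a protease in a covalent complex: PAI-2 (SERPINB2) acts on the activators, and protease nexin-1 (SERPINE2) acts on thrombin, urokinase and plasmin. Urokinase and its receptor are known parts of the secretory output of senescent fibroblasts.

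Ribosome profiling sequences the stretches of mRNA that translating ribosomes protect, so a value moves with mRNA level as well as with translation; RNA abundance was not analysed here. In bulk cultures a smaller share of cells that use a gene and less RNA per cell cannot be told apart. The cells were BJ, an established line of human skin fibroblasts, and all carried the label BJ-HRAS, which names the signalling GTPase HRAS. There were 4 groups of 2 libraries: wild-type (WT) clones 15 and 54 and SNORA13 knockout clones 66 and 69, each untreated and treated with 100 nM 4-OHT for 7 days. SNORA13 is a small nucleolar RNA, and 4-OHT is an estrogen receptor ligand. Each genotype rests on 2 clones, so genotype and clone cannot be told apart, and neither can 4-OHT and the table that holds its libraries.

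Values are reads per kilobase of gene span, scaled to the library's total (RPKM), with introns in the span. A gene with long introns therefore has a low value, and levels of different genes are set side by side below only as changes, as ratios or as ranks on this scale. The libraries held an estimated 190898 to 1710461 reads, and knockout clone 66 with 4-OHT was the shallowest. SNORA13, its host gene and HRAS were not listed, so the knockout was not checked on these values. Why a gene is not listed is not given in the sources used here. F5, a coagulation gene, was listed at 0 in every library without 4-OHT. A gene not listed, as some markers below, therefore cannot be read as being at 0. Of 12 fibroblast markers, 12 were listed without 4-OHT and 11 with it. Their share of reads was 6.11% to 7.79% in untreated and 2.51% to 2.99% in treated libraries. In each genotype 8 of 11 tested markers were called lower with 4-OHT and 1, VIM, higher (limma-trend adjusted p under 0.05). Over all tested genes 8.14% were called lower and 13.7% higher in WT, and 10.7% and 17.3% in knockout clones. VIM went from 627 to 2141 RPKM in WT and from 610 to 1860 in knockout clones (means, n = 2). The pooled share therefore joins changes of both directions. Keratinocyte markers, 2 of 9 listed, went from at most 3.73e-04% to between 0.00110% and 0.00453% of reads, with KRT5 and KRT14 not listed. That rise was in KRT10, on 28, 27, 5 and 10 estimated reads in treated clones 15, 54, 66 and 69. SFN, the other listed marker, had 0 or 1 estimated read in every library. Leukocyte markers, 4 of 12 listed in each table, went from between 0.0136% and 0.0287% to between 0.0259% and 0.0402%, nearly all of it CD68 and CD14; PTPRC was at or near 0 without 4-OHT and not listed with it. Endothelial markers held at most 0.00437% without and 0.00654% with 4-OHT, with CDH5 not listed and PECAM1 listed only with 4-OHT, where it was at 0 in 3 of 4 libraries. Cell types of this kind can also make uPA, its receptor and tPA, and the part of these marker changes in the values below was not tested.

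The promoters of PLAU, PLAUR and SERPINE2, an activator, the receptor and an inhibitor, are shown because AP-1 and ETS factors are known to act downstream of RAS signalling; that of PLAT was not used here. The sequences are the 250 bases before a RefSeq start site (GRCh38.p14), 5′ to 3′ on the gene's strand, at chr10:73910882-73911131 (plus strand) for PLAU, chr19:43670170-43670419 (minus strand) for PLAUR and chr2:224038641-224038890 (minus strand) for SERPINE2. Capitals mark matches, on either strand, to short motifs of AP-1, CRE, ETS, Sp1 and TATA factors, and no match overlaps one of another motif.
PLAU: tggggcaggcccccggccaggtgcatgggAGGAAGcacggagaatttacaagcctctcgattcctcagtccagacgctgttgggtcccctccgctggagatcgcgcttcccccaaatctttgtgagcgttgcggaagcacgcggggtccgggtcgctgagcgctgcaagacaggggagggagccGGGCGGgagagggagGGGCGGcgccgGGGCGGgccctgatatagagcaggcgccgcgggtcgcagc
PLAUR: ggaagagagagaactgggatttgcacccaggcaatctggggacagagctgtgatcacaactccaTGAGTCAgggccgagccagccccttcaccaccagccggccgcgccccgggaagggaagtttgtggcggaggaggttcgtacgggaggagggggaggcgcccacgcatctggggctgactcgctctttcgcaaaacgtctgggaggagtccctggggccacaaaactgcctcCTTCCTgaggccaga
SERPINE2: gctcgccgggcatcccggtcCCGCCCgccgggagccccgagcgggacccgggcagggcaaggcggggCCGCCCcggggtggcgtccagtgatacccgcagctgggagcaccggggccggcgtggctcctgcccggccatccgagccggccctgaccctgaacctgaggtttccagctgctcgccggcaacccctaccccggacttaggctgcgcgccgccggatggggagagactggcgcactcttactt

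The PLAUR window held an AP-1 match, TGAGTCA, that begins 186 bases before the start site, and an ETS match that begins 15 bases before it. The AP-1 motif searched, TGANTCA, was found in 6.57% of 35116 promoter windows of this length. The ETS motif, AGGAAG, was found in 28.7% of them. The PLAU window held 3 Sp1 matches, which begin 66, 51 and 40 bases before the start site, and an ETS match that begins 221 bases before it. No AP-1 match was found in the PLAU window. The Sp1 motif, GGGCGG, was found in 42.6% of windows. The SERPINE2 window held 2 Sp1 matches and no match to the other motifs. For PLAU and SERPINE2 the window of 1 more RefSeq start site each was searched, and those windows held no match and 1 Sp1 match. The RefSeq spans of PLAU and SERPINE2 reach further upstream than all their windows, and any start site there was not searched. The CRE motif, TGACGTCA, was found in 1.65% of all windows and in none of the windows of these 3 genes. The same holds for the TATA motif, TATAAA, found in 10.7% of all windows. The window of SERPINB2, which has no footprint value here, is not shown. It held an AP-1 match that begins 102 bases before the start site, an ETS match at 119 and a TATA match at 30. A match is a stretch of letters and shows no binding.

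PLAU (ENSG00000122861.16; GRCh38.p14 chromosome 10, 73908832 to 73917494), the urokinase gene, had the largest log2 fold changes with 4-OHT among the 4 genes PLAU, PLAT, PLAUR and SERPINE2. Without 4-OHT it measured 11.8 RPKM in WT clone 15, 12.1 in WT clone 54, 15.3 in knockout clone 66 and 17.6 in knockout clone 69. With 4-OHT it measured 349.9, 457, 384 and 465 RPKM in the same order. Every library with 4-OHT was far above every library without it, and the ranges with 4-OHT of the genotypes overlapped. Within clones the ratio of the value with 4-OHT to that without was 29.6 in clone 15, 37.9 in clone 54, 25.2 in clone 66 and 26.5 in clone 69. PLAU footprints made up between 0.0101% and 0.0149% of the reads of libraries without 4-OHT and between 0.299% and 0.395% with it. By RPKM the gene stood between rank 620 and rank 858 of 11546 genes without 4-OHT, and between rank 44 and rank 54 of 11079 with it. The estimated reads behind the values were 83 to 260 without and 636 to 5113 with 4-OHT. A long noncoding gene, C10orf55, overlaps 7526 bases of the PLAU span, and noncoding genes also overlap the spans of SERPINE2 (LOC124907990, 10444 bases) and PLAUR (LOC124904724, 1406 bases, and the pseudogene RN7SL368P, 277 bases). How the counting treated shared or antisense reads is not given in the sources used here, so such reads cannot be told apart.

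PLAT (ENSG00000104368.17), the gene of tissue-type plasminogen activator, changed on a like scale. Without 4-OHT it measured 5.63 RPKM in clone 15, 5.33 in clone 54, 4.37 in clone 66 and 3.62 in clone 69. With 4-OHT the values were 149, 131, 75.1 and 81.3. Libraries with 4-OHT lay above all libraries without it, and within each table both knockout clones lay below both WT clones. The ratios within clones were 26.4 in clone 15, 24.5 in clone 54, 17.2 in clone 66 and 22.5 in clone 69. Its share of the reads went from between 0.0117% and 0.0182% to between 0.243% and 0.482%, on 129 to 245 estimated reads without and 471 to 8251 with 4-OHT.

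PLAUR (ENSG00000011422.12; chromosome 19, 43646095 to 43670169), the urokinase receptor, had smaller ratios of treated to untreated values than its ligand. Untreated WT clones 15 and 54 measured 2.39 and 2.57 RPKM, and treated ones 13.7 and 17.5. In knockout clones 66 and 69 it measured 3.36 and 3.13 without and 20.5 and 20.6 with it. Here too the treated and untreated libraries did not overlap, and both knockout clones lay above both WT clones in each table. The ratios within clones spanned a narrow range, from 5.74 in clone 15 to 6.79 in clone 54, with 6.08 in clone 66 and 6.56 in clone 69. Between 49 and 129 reads were estimated without 4-OHT and between 94 and 557 with it.

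SERPINE2 (ENSG00000135919.13; chromosome 2, 223975045 to 224039286), which encodes protease nexin-1, had the smallest changes and the widest spread between clones. It measured 4.09 RPKM in clone 15 and 5.04 in clone 54 without 4-OHT, and 9.75 and 7.72 with it. In knockout clones 66 and 69 it measured 3.87 and 7.38 without and 17.5 and 13.1 with 4-OHT. Treated libraries again lay above untreated ones within each genotype. The ratio within clones ran from 1.53 in clone 54 and 1.78 in clone 69 to 2.39 in clone 15 and 4.54 in clone 66, the clone whose library with 4-OHT was the shallowest. The estimated reads lay between 215 and 1056 over the 8 libraries.

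**Figure D1:**
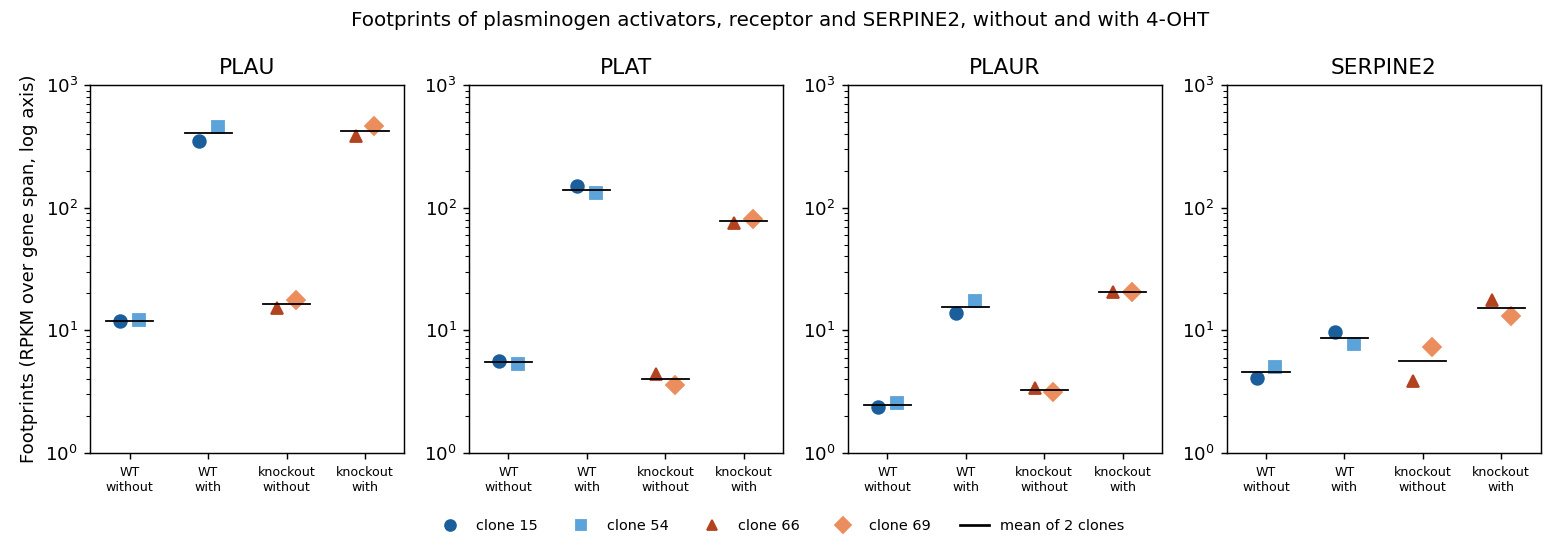
Footprints of PLAU, PLAT, PLAUR and SERPINE2 in RPKM over the gene span (log axis) in each of the 8 libraries, by genotype and 4-OHT; symbols are clones and lines are means of 2 clones. For all 4 genes the libraries with 4-OHT lie above those without it in the same genotype, and PLAT lies lower in knockout than in WT clones in each table.

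Across all tested genes the change with 4-OHT was fitted on all 8 libraries with limma-trend on log2(RPKM + 1), which shrinks the change of genes with low values. In WT clones PLAU rose by 4.95 ± 0.20 (log2 fold change ± SE), PLAT by 4.44 ± 0.18 and PLAUR by 2.25 ± 0.19, with Benjamini-Hochberg adjusted p of 5.59e-05, 5.59e-05 and 5.42e-04. The log2 fold change of SERPINE2 in WT clones was 0.80 ± 0.30 and missed the threshold (limma-trend adjusted p = 0.0996). So 3 of the 4 listed genes were called higher, where 13.7% of 8708 tested genes were called higher. Groups that do not overlap are common: treated WT clones lay above untreated ones in 41.6% of tested genes, and treated knockout clones in 36.9%. Ordered from the highest log2 fold change in WT clones, PLAU held rank 10, PLAT rank 11, PLAUR rank 125 and SERPINE2 rank 1192 of 8708. These ranks describe genes that were chosen with such values in view and support nothing further.

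In knockout clones all 4 listed genes were called higher, where 17.3% of 8708 tested genes were. PLAU rose by 4.61 ± 0.20, PLAT by 3.99 ± 0.18, PLAUR by 2.34 ± 0.19 and SERPINE2 by 1.34 ± 0.30, with limma-trend adjusted p of 6.06e-05, 6.06e-05, 3.69e-04 and 0.0155. The ranks from the highest change were 11 for PLAU, 18 for PLAT, 123 for PLAUR and 566 for SERPINE2. The SERPINE2 call rested on clone 66: without its library with 4-OHT the log2 fold change was 1.14 (adjusted p = 0.0594), and without its library lacking 4-OHT it was 0.95 (adjusted p = 0.0839). A fit of the 4 knockout libraries alone ended it as well (adjusted p = 0.0543). With the same restriction to the 4 WT libraries SERPINE2 passed in WT clones (adjusted p = 0.0288), and with limma-voom on recovered reads it passed there too (0.71, adjusted p = 0.0139), where that method called 14.5% of genes higher. The rise of PLAU, PLAT and PLAUR passed in all 10 alternatives in each genotype.

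Another scaling moved the balance of calls over all genes. In WT clones 1190 genes (13.7%) were called higher and 709 (8.14%) lower, and after scaling by median ratios the counts were 820 and 972. In knockout clones 1503 (17.3%) were called higher and 932 (10.7%) lower, which became 1005 and 1333. The median log2 fold change of all tested genes in WT clones was 0.06 on the deposited scale, -0.02 after median-ratio scaling and -0.07 by limma-voom; in knockout clones it was 0.05, -0.04 and -0.10. None of these scalings turned the direction of the 4 listed genes, and with median-ratio scaling the WT changes were 4.69 for PLAU, 4.19 for PLAT, 2.02 for PLAUR and 0.57 for SERPINE2.

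**Figure D2:**
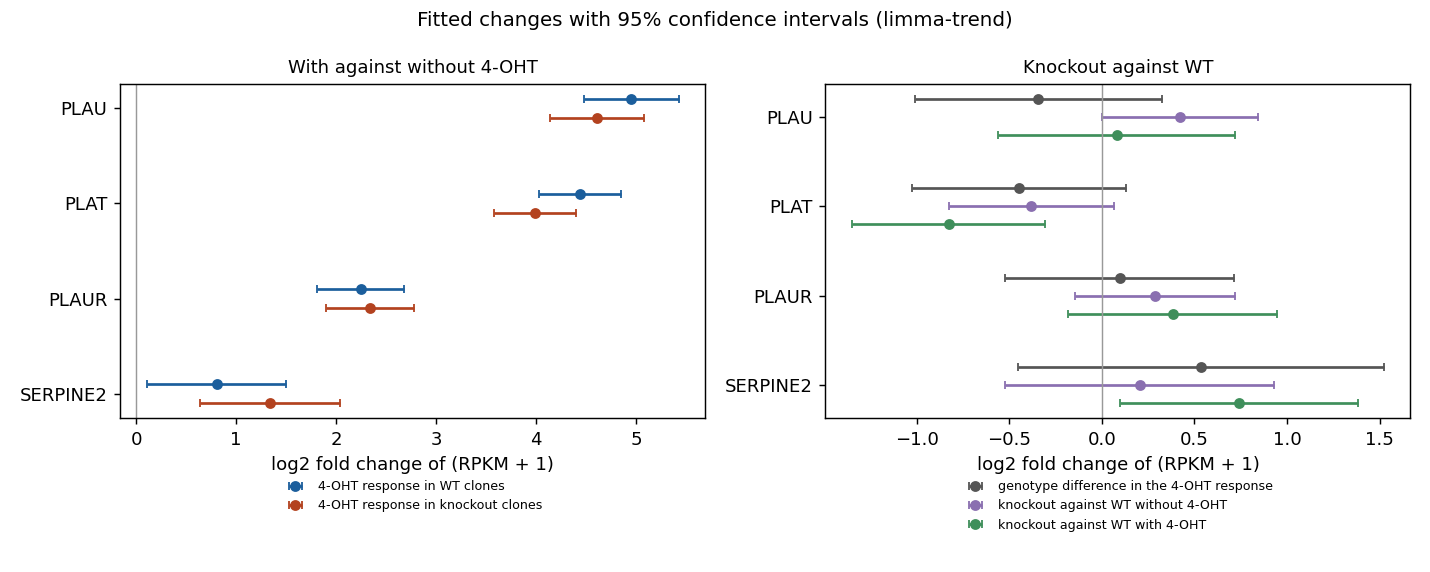
Log2 fold changes of (RPKM + 1) with 95% confidence intervals from limma-trend, for the 4 listed genes; the left panel shows 4-OHT against no 4-OHT in WT and knockout clones, and the right panel shows knockout against WT without 4-OHT, with 4-OHT, and the difference of both. PLAU and PLAT lie near 4 to 5 in the left panel, and PLAT with 4-OHT lies at -0.83 in the right one.

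The comparison of knockout with WT clones asked whether loss of SNORA13 goes with other levels of these genes. No gene passed with limma-trend in either table: 0% of 8084 genes without 4-OHT and 0% of 7694 with it were called, with 683 and 363 genes at an unadjusted p under 0.05. By limma-voom 59 genes (0.73%) were called without 4-OHT and 33 (0.429%) with it. Without 4-OHT the log2 difference (knockout minus WT) of PLAT was -0.38 ± 0.18 (limma-trend adjusted p = 0.645). With 4-OHT it was -0.83 ± 0.21, with a 95% confidence interval of -1.35 to -0.31, an unadjusted p of 0.00837 and an adjusted p of 0.823. By limma-voom on recovered reads, where 0.26% of 7694 genes were called lower, PLAT was lower in knockout clones (-0.87 ± 0.13, adjusted p = 1.65e-05). That call held without either WT clone and was lost without knockout clone 66 (adjusted p = 0.153) or clone 69 (adjusted p = 0.0665), while the difference stayed between -0.72 and -0.91. Mean PLAT levels with 4-OHT were 139.9 ± 12.8 RPKM (SD, n = 2) in WT and 78.2 ± 4.37 in knockout clones.

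PLAUR values of both knockout clones lay above those of both WT clones in each table, at 3.25 ± 0.162 against 2.48 ± 0.131 RPKM without 4-OHT and 20.5 ± 0.0706 against 15.6 ± 2.67 with it (SD, n = 2). The log2 differences were 0.29 ± 0.17 and 0.38 ± 0.23 (limma-trend adjusted p = 0.696 and 0.823). Clones that do not overlap in the same direction in both tables were found in 4.27% of 7196 genes for higher values and in 5.38% for lower values, the latter including PLAT. PLAU values of the knockout clones lay above those of the WT clones without 4-OHT (0.42 ± 0.17, limma-trend adjusted p = 0.591; 16.4 ± 1.62 against 11.9 ± 0.165 RPKM) and overlapped between genotypes with 4-OHT (0.08 ± 0.26, adjusted p = 0.949). SERPINE2 overlapped without 4-OHT (0.20 ± 0.29, limma-trend adjusted p = 0.886), and with 4-OHT both knockout clones lay above both WT clones (0.74 ± 0.26, adjusted p = 0.823; 15.3 ± 3.13 against 8.73 ± 1.43 RPKM). In a single table, knockout clones lay above WT clones without overlap in 18.9% of genes without 4-OHT and in 19.1% with it, and below them in 20.6% and 18.5%.

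The difference between genotypes in the response to 4-OHT was not resolved for any of these genes. Over 8708 genes limma-trend called 0% (449 at an unadjusted p under 0.05) and limma-voom called 4 genes, 0.0459%. Knockout minus WT, the log2 difference in response was -0.34 for PLAU with a 95% confidence interval of -1.01 to 0.32, -0.45 for PLAT (-1.03 to 0.13), 0.10 for PLAUR (-0.52 to 0.71) and 0.54 for SERPINE2 (-0.45 to 1.52), with limma-trend adjusted p between 0.857 and 0.950. The SERPINE2 difference was 0.14 without untreated clone 66, 0.34 without treated clone 66 and 0.93 without untreated clone 69. The PLAU difference was -0.54 without treated clone 15, -0.15 without treated clone 54 and -0.21 without treated clone 66. The PLAUR difference was 0.06 without untreated clone 54 or 69, -0.07 without treated clone 15 and 0.26 without treated clone 54.

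Ratios within a library do not depend on how libraries are scaled, but the size of a single ratio depends on the spans of both genes and says nothing of protein amounts. The ratio of PLAU to its receptor PLAUR in RPKM was 4.95 and 4.69 in untreated WT clones 15 and 54 and 4.54 and 5.60 in untreated knockout clones 66 and 69. In treated clones it was 25.5, 26.1, 18.8 and 22.6 in the same order, so all 4 treated clones lay above all untreated ones and both treated knockout clones lay below both treated WT clones. The ratio of PLAU to the inhibitor SERPINE2 went from 2.90, 2.39, 3.95 and 2.38 to 35.9, 59.3, 21.9 and 35.5, and treated clone 69, at 35.5, lay just below treated clone 15, at 35.9. The ratio of PLAT to SERPINE2 was 15.3 and 17.0 in treated WT clones and 4.29 and 6.20 in treated knockout clones, against 0.490 to 1.38 over the untreated clones. The ratio of PLAU to PLAT was higher in knockout than in WT clones within each table, at 3.49 and 4.85 against 2.10 and 2.26 without 4-OHT and 5.12 and 5.72 against 2.35 and 3.50 with it. With 2 clones against 2 no 2-sided permutation test of such a ratio can go below 1 in 3, so none is given. How often ratios of other gene pairs separate the genotypes in this way was not computed. Values of single genes did so often: knockout clones lay above WT clones in 18.9% of genes without 4-OHT and 19.1% with it. They lay below in 20.6% and 18.5%.

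**Figure D3:**
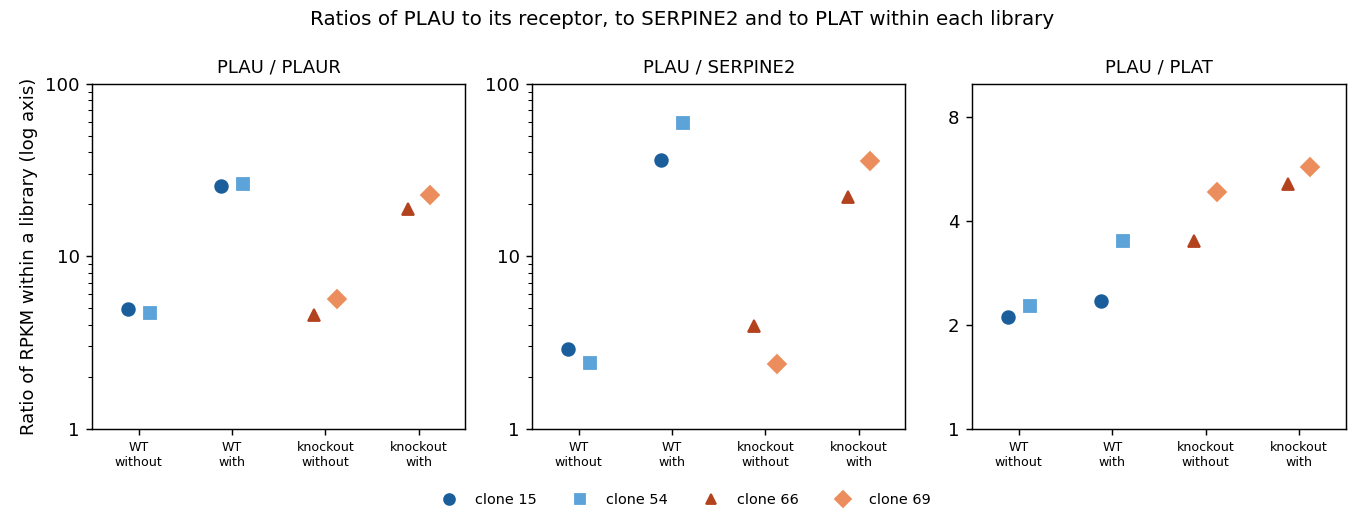
Ratios of RPKM within each library (log axes) for PLAU to PLAUR, PLAU to SERPINE2 and PLAU to PLAT, by genotype and 4-OHT; symbols are clones. The ratio of PLAU to PLAUR lies between 4.54 and 5.60 in untreated and between 18.8 and 26.1 in treated clones. The ratio of PLAU to PLAT lies higher in knockout clones in each table, and how often other gene pairs do the same was not computed.

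Genes around plasminogen activation were described from lists chosen with earlier results of these data known. Of 22 genes that bind plasminogen or urokinase at the surface or clear the activators, 12 were tested. In WT clones 2 rose and 4 fell, with a median log2 fold change of -0.04 against 0.06 over all tested genes, and in knockout clones 4 rose and 4 fell, with a median of 0.20 against 0.05. For this and the next lists, the limma-trend shares over all tested genes were 13.7% higher and 8.14% lower in WT clones. In knockout clones these shares were 17.3% and 10.7%. Limma-voom called 1262 higher and 1572 lower of all 8708 genes in WT clones, and 1220 and 1378 in knockout clones. With median-ratio scaling the counts over all genes were 820 and 972 in WT and 1005 and 1333 in knockout clones. With median-ratio scaling the medians of the surface and clearance genes were -0.24 and -0.05, and limma-voom called 5 higher and 5 lower in each genotype. S100A10, which with annexin A2 forms a surface complex that binds plasminogen and tPA, rose from 30.7 ± 1.99 to 114 ± 5.16 RPKM in WT clones and from 30.5 ± 2.47 to 113 ± 23.6 in knockout clones. ANXA2, its partner and named outside the rule for that reason, fell from 25.02 ± 2.71 to 14.3 ± 0.513 and from 19.6 ± 0.401 to 12.6 ± 0.306. ENO1, a glycolytic enzyme that also binds plasminogen at the surface, rose from 68.7 ± 3.22 to 254 ± 8.96 in WT clones and from 64.4 ± 1.52 to 231 ± 28.3 in knockout clones. LRP1, the endocytic receptor that clears complexes of activator and inhibitor, fell from 54.03 ± 1.48 to 6.04 ± 0.706 RPKM in WT clones and from 48.03 ± 4.49 to 7.18 ± 1.29 in knockout clones, a log2 fold change of -2.97 ± 0.19 and -2.59 ± 0.19 (limma-trend adjusted p = 2.19e-04 and 2.81e-04). IGF2R, a sorting receptor that binds uPAR and plasminogen, fell from 7.92 ± 0.184 to 3.61 ± 0.234 and from 9.61 ± 0.675 to 3.32 ± 0.00982, and its WT call held in 7 of 10 alternatives. PLG, the plasminogen gene itself, was among the genes not tested. It measured 0 RPKM in untreated clones 15, 54 and 66 and 0.0114 in untreated clone 69, on 1 estimated read. With 4-OHT it was not listed.

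Of 33 other serpins 8 were tested with 4-OHT, and in each genotype 2 rose and 2 fell, where 13.7% and 8.14% of all tested genes did in WT and 17.3% and 10.7% in knockout clones (median log2 fold change -0.31 in WT and 0.02 in knockout clones). With median-ratio scaling the counts were 1 higher and 4 lower in WT clones and 2 and 4 in knockout clones, and the medians were -0.49 and -0.22, so the knockout median changed sign. By limma-voom 3 were higher and 4 lower in WT clones, where 1262 and 1572 of all 8708 genes were. In knockout clones 2 and 3 were, beside 1220 and 1378 of all genes. The list's medians by limma-voom were -0.83 in WT and -0.11 in knockout clones. SERPINB7, a clade B serpin known from keratinocytes and mesangial cells, rose from 0.820 ± 0.169 to 9.78 ± 4.84 RPKM in WT and from 1.07 ± 0.313 to 16.6 ± 1.10 in knockout clones. SERPING1, the inhibitor of complement C1, fell from 15.4 ± 1.34 to 3.61 ± 0.261 and from 24.5 ± 1.78 to 4.62 ± 0.304. SERPINH1, the collagen chaperone HSP47, which inhibits no protease, fell from 154 ± 15.7 to 38.1 ± 0.147 and from 154 ± 17.6 to 23.6 ± 9.19.

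Of 23 genes of coagulation and its receptors 7 were tested, and 0 rose and 1 fell in WT clones while 3 rose and 1 fell in knockout clones, beside 13.7% higher and 8.14% lower over all tested genes in WT and 17.3% and 10.7% in knockout clones. Their medians were 0.03 and 0.01 against 0.06 and 0.05 over all genes, and with median-ratio scaling -0.16 and -0.20 against -0.02 and -0.04. By limma-voom 1 was higher and 2 lower in WT clones, where 1262 and 1572 of all 8708 genes were. In knockout clones 3 and 2 were, beside 1220 and 1378 of all genes. The gene that fell in both was F3, tissue factor, the receptor that starts coagulation, from 39.1 ± 2.38 to 12.3 ± 2.20 RPKM in WT and from 52.2 ± 2.73 to 13.03 ± 2.18 in knockout clones. Of 12 relatives of uPAR in the LY6 family 3 were tested, and 1 rose in each genotype (13.7% of all tested genes in WT and 17.3% in knockout clones), CD59, an inhibitor of the complement membrane attack complex. It went from 13.2 ± 1.37 to 52.1 ± 8.43 and from 13.98 ± 2.68 to 70.07 ± 0.261.

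Of 19 known plasmin substrates and proteins that plasmin activates or releases, 12 were tested. In WT clones 2 rose and 8 fell, with a median of -0.998 against 0.06 over all genes, and in knockout clones 3 rose and 7 fell, with a median of -1.60 against 0.05. Over all tested genes 13.7% rose and 8.14% fell in WT and 17.3% and 10.7% in knockout clones. The list's median was -1.79 in WT clones with a pseudocount of 0.1, and by limma-voom it was -2.53 in WT and -2.96 in knockout clones. MMP1, a collagenase whose proenzyme plasmin can activate, rose from 12.5 ± 4.65 to 1415 ± 4.23 RPKM in WT and from 12.99 ± 13.2 to 2278 ± 91.5 in knockout clones. The basement membrane proteoglycan HSPG2 fell from 28.1 ± 4.14 to 0.884 ± 0.398 and from 36.1 ± 19.8 to 0.808 ± 0.0163. IGFBP5, an insulin-like growth factor binding protein, fell from 123 ± 1.27 to 6.82 ± 2.69 and from 225 ± 30.9 to 11.8 ± 0.633. THBS1, the matricellular protein thrombospondin-1, fell from 2241 ± 134 to 229 ± 48.7 and from 2936 ± 123 to 157 ± 23.5. All 13 genes that the rule for named genes took from these lists kept their direction in all 10 alternatives of each comparison.

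**Figure D4:**
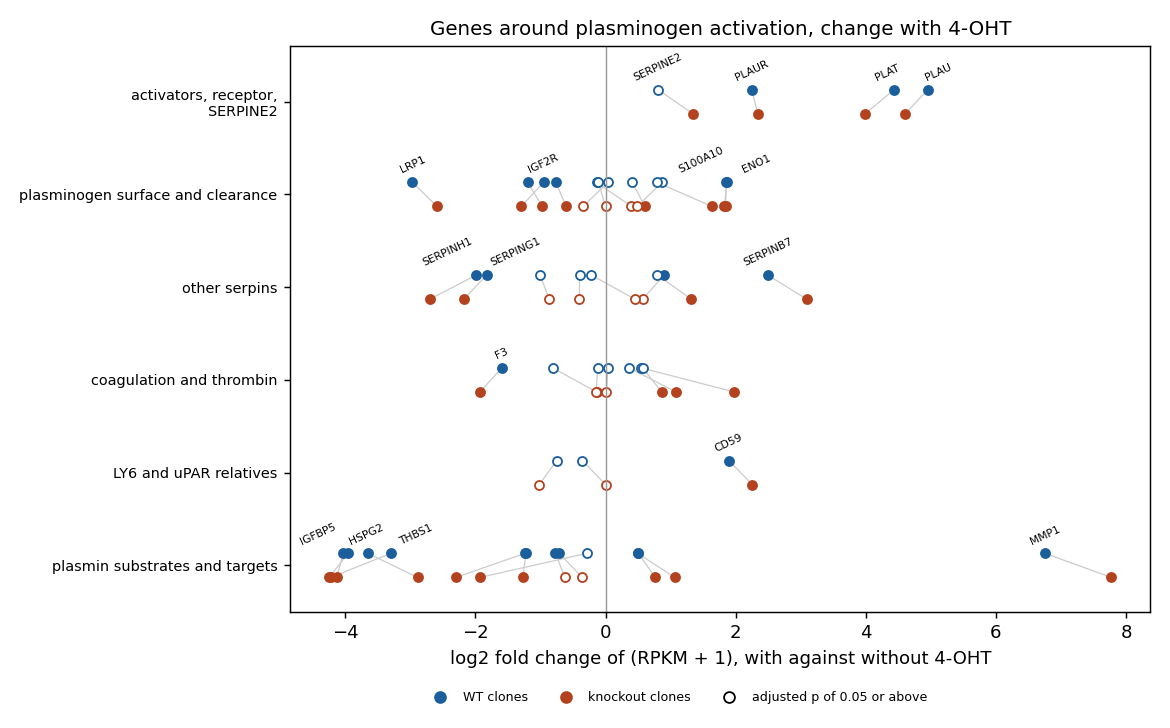
Log2 fold change of (RPKM + 1) with 4-OHT for the 4 listed genes and for 5 lists of genes around plasminogen activation, WT clones above and knockout clones below in each row, joined per gene; open symbols did not pass the threshold. PLAU and PLAT lie to the right of all list genes but MMP1, and LRP1 lies at -2.97 in WT clones.

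Genes with the most alike pattern were those at the smallest Euclidean distance over the 8 libraries between log2(RPKM + 1) profiles, each centred on its own mean. For PLAU these were TM4SF1 (distance 0.978), PHLDA1 (1.10) and IL1B (1.28), against a median distance of 6.71 over all tested genes. TM4SF1, a tetraspanin-like surface protein, measured between 1.61 and 6.57 RPKM without 4-OHT and between 126 and 162 with it. For PLAT they were SLC20A1 (0.839), NT5E (0.982) and EREG (1.41), against a median of 5.96. SLC20A1, a phosphate transporter, went from between 4.52 and 7.99 RPKM to between 105 and 157. For PLAUR they were RPL35A (0.323), HIST1H3G (0.414) and H1F0 (0.459), against a median of 3.25, and for SERPINE2 NUP43 (0.496), NOLC1 (0.498) and BRIX1 (0.508), against 1.86. Among the 4 listed genes PLAU and PLAT lay closest, at 1.54, and PLAU and SERPINE2 farthest apart, at 5.35.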

How the data were processed

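Footprint values of 8 libraries were used as the authors deposited them, in a table without and a table with 4-OHT. The deposited numbers were taken as RPKM, although the file headers name no unit: multiplied by gene span in kilobases they summed, per library, to between 1.01 and 1.02 times the value that RPKM gives when every read lies in a listed gene. STAR and GRCh38 are named per the submitters' processing notes; versions, counter, annotation, multimapping and strand handling: not given in the sources used here. Spans came from RefSeq (GRCh38.p14), with none for 105 of 11546 and 104 of 11079 genes. Low values fell on whole multiples of a step (75.8% to 81.1% within 0.1 of a whole read), which gave approximate reads and depths.

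Tests used limma 3.58.1 in R 4.3.3 (limma-trend, log2(value + 1), genes reaching 10 recovered reads in 2 or more libraries, Benjamini-Hochberg threshold 0.05), on all 8 libraries for 4-OHT (4 residual degrees of freedom) and on 4 for genotype (2). Clones 15, 54, 66 and 69 pair the libraries, since each clone was collected without and with 4-OHT; deviations from group means correlated at 0.146 across 8708 genes in WT and 0.007 in knockout clones. Whether libraries of 1 group are separate cultures beyond being separate clones is not stated. Members and lists were chosen with earlier results of these data known. Named genes were the members, up to 4 per list with the largest mean change among those called in both genotypes, and the 3 most alike genes per member. Alternatives are in the closing section. All per-sample columns were used. A result of the list of other serpins is not reported here.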

Additional observations from a re-analysis of the deposited data

How the results depend on the processing

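Of 220 recomputed values of the 4 genes, 202 kept direction and side of the threshold, 3 lost and 9 gained a call and 6 changed sign. The number of called genes ranged from 809 to 1079 when 1 library was left out in WT clones (1899 with all), from 1105 to 3469 in knockout clones (2435), from 0 to 2 for the genotype difference in response, from 0 to 6 without 4-OHT and from 0 to 874 with it. A fit of the 4 knockout libraries alone called 1280 genes. Limma-voom called 4 genes for the difference in response, 59 for genotype without and 33 with 4-OHT, where leaving out 1 library, an alternative chosen after seeing the data, gave 101, 179, 21 and 463. The replicate block (clone) gave 1564 genes in WT, 2025 in knockout clones and 3 for genotype without 4-OHT with all 8 libraries, and it changed no call of the 4 genes. SERPINE2 gained a call in WT clones by limma-voom (0.71) and with only 4 libraries (0.80), and lost it in knockout clones with only 4 (1.34); leaving out 1 library gave 0.95 to 1.73. By genotype with 4-OHT PLAT passed by limma-voom (-0.87), and leaving out 1 library gave -0.92 to -0.74 for PLAT, -0.11 to 0.27 for PLAU and 0.54 to 0.94 for SERPINE2. With limma-voom PLAT also passed without WT clone 15 (-0.72) or 54 (-0.91), SERPINE2 without WT clone 15 (0.86), WT clone 54 (0.52) or knockout clone 69 (1.02), and PLAU without WT clone 54 (0.34). Without 4-OHT SERPINE2 spanned -0.19 to 0.60, and the difference in response of PLAUR spanned -0.07 to 0.26. The signs that changed were those of PLAU without WT clone 15 (-0.11 by limma-trend, -0.05 by limma-voom) and without knockout clone 69 (-0.06, -0.04), of SERPINE2 without knockout clone 69 (-0.19) and of PLAUR without treated WT clone 15 (-0.07); the cause was not tested. A fit that left a group with 1 library assumes that it varies like the others. Levels per coding length were not run. Depth was lowest in knockout clone 66 with 4-OHT, at 190898 reads.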
